A study of Mus musculus with 22 samples.

Results

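Extraocular muscle (EOM), which turns the eyeball, was compared with leg muscle in Balb mice aged 10 months. The comparison rests on 6 of the 22 arrays of the series, chosen by their labels as the 3 Balb EOM arrays and the 3 Balb leg arrays at that age. It covers the 12422 probe sets, of 12488 in all, that are not hybridisation controls. The series measured total RNA of EOM and leg muscle from Balb and SJL mice, 2 inbred strains, at 10 and 12 months on Affymetrix arrays. The groups were Balb EOM at 10 months (3 arrays), Balb leg muscle at 10 months (3), SJL EOM and SJL leg muscle at 10 months (3 each), Balb EOM at 12 months (2) and Balb leg muscle at 12 months (3), beside the 12-month SJL groups, which served here only to estimate the spread. The labels give no treatment or transgene for any group, do not say which leg muscle was taken or how the orbit was dissected, and leave unstated if each replicate was another animal. The p-values therefore measure only the spread between these samples, which may be technical.

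Adult limb muscle fibres are built from slow or fast isoforms of myosin and of its regulatory proteins, and they stop making the embryonic isoforms around birth. Extraocular muscle derives from head mesoderm, is supplied by a dense set of motor nerve fibres, and is known for fibres that keep embryonic and cardiac isoforms throughout life. The muscles lie in the orbit beside fat, nerves and glands that secrete tears and scent-binding proteins, so a dissected sample can hold some of these tissues.

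Replicate 1 of each muscle stood apart from the others. The ratio of the 3 prime to the 5 prime probe set of Actb, a control that rises when RNA is broken, was 9.80, 1.21 and 1.04 on replicates 1, 2 and 3 of EOM, against 5.05, 1.08 and 0.847 on those of leg muscle. For Gapdh it was 18.3, 1.14 and 1.54 in EOM, against 2.17, 0.448 and 0.412 in leg muscle. The highest intensity on an array was 44690 and 40242 on replicate 1 of EOM and of leg muscle, and 88354 to 105179 on the other 4 arrays. The 12-month Balb arrays also had low maxima, at 35857 to 41396 in leg muscle and 61883 and 50229 in EOM. Their Actb ratios were 1.17 to 1.56. The replicate 1 arrays of both SJL muscles at 10 months also stood apart, with Actb ratios of 53.7 in EOM and 28.7 in leg muscle. The main results are therefore given on all 22 arrays and on the 18 arrays without these 4 replicate 1 arrays, and a value with no array number is from the 22-array fit. The 18 arrays keep SJL EOM replicates 2 and 3, with Gapdh ratios of 6.71 and 4.66, against 0.761 and 0.363 in SJL leg muscle. Those EOM arrays had Actb ratios of 1.77 and 1.70. The scatter was shared over the 8 groups, so the 22-array errors carry the SJL replicate 1 arrays too.

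The muscle label was borne out by fibre genes in both tissues. Tnnt3, the fast troponin T, had intensities of 34005, 86943 and 95497.5 in EOM, against 31380.4, 105179 and 88609 in leg muscle, each triple given here and below in the order of replicates 1, 2 and 3. Acta1, the skeletal actin, stood at 4066, 52692 and 56228 in EOM, against 1550.4, 75677 and 52924 in leg muscle. Of 10 fibre markers, 8 had a probe set, and Myh2, the myosin of fast oxidative fibres, was dim, at 144, 283 and 59.7 in EOM, against 84.9, 38.6 and 136 in leg muscle. Several abundant fibre transcripts read far lower on replicate 1 of both muscles, and Myh4, the myosin of the fastest limb fibres, had 15974, 50272 and 59618 in EOM, against 1563, 64467 and 64857 in leg muscle.

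**Figure D1:**
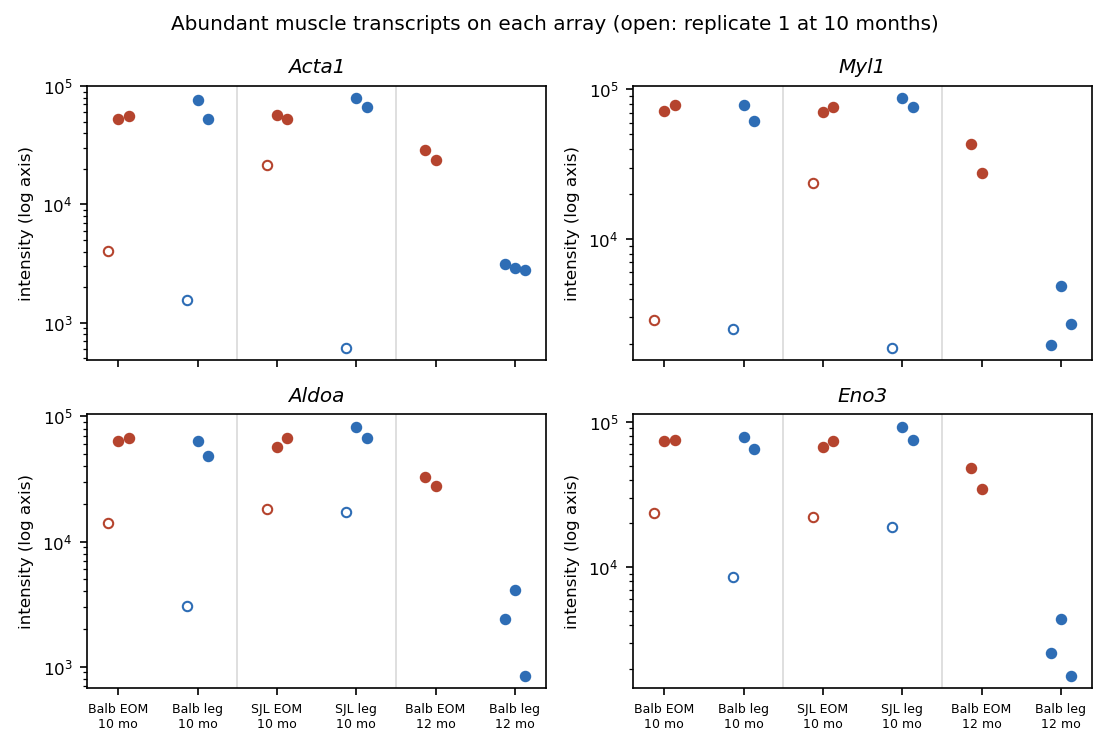
Intensity (log axis) of 4 abundant muscle transcripts on each array of 6 groups, EOM in red and leg muscle in blue, with replicate 1 at 10 months open. On replicate 1 Acta1 read 4066 in Balb EOM and 1550.4 in Balb leg muscle, against 52692 or more on the other 4 Balb arrays at that age, and the 12-month Balb leg arrays also read low.

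On all 22 arrays 208 probe sets were higher in EOM (1.67% of those tested) and 121 were lower (0.974%), together 2.65%, by limma at an adjusted p under 0.05. In 327 of these 329 the 3 EOM arrays all lay on one side of the 3 leg arrays, which a call on the same arrays makes likely. Over all probe sets 10.5% lay wholly above and 6.28% wholly below. On 18 arrays 795 were higher (6.4%) and 705 lower (5.68%), together 12.1%, and these held 317 of the 329, all in the same direction. With the replicate number as a block the counts were 425 higher (3.42%) and 343 lower (2.76%), together 6.18%. Without the Balb replicate 1 arrays alone, the SJL ones being kept, they were 191 and 98. Centring each array on its median gave 152 higher and 153 lower, and quantile normalization gave 205 and 161, beside a median log2 difference of 0.07 over all probe sets as deposited and -0.01 after quantile normalization. In the series' other arrays, 207 of the 208 higher probe sets had the same sign in Balb at 12 months and 204 in SJL at 10 months, and 136 and 100 of them passed there. Of the 121 lower ones 116 and 114 had the same sign, and 74 and 52 passed. Over all probe sets the sign was the same for 68.4% in Balb at 12 months and 67.1% in SJL at 10 months.

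At 1 probe set a gene, 166 of 8251 genes rose in EOM (2.01%) and 87 fell (1.05%) on 22 arrays, and 632 rose (7.66%) and 514 fell (6.23%) on 18. These shares are the background for the gene groups below. The genes that passed both ways with no overlap between muscles and with a mean intensity of 1000 or more in the higher muscle numbered 137 that rose and 75 that fell. The 15 largest in each direction are described with their groups.

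**Figure D2:**
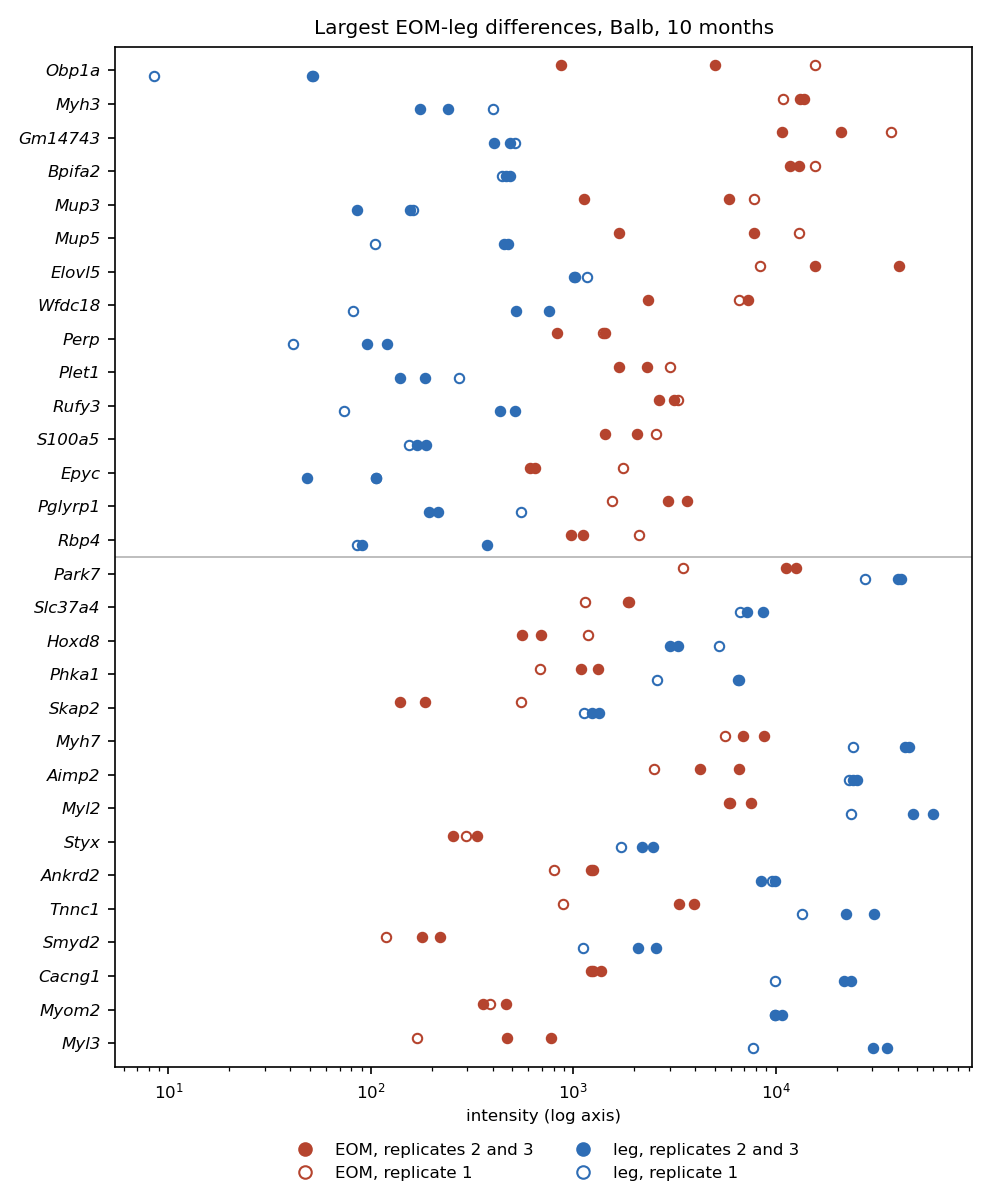
Intensity (log axis) of the 15 genes with the largest rise, above the line, and the 15 with the largest fall, below it, on the 3 EOM arrays (red) and the 3 leg arrays (blue) of Balb mice at 10 months, with replicate 1 open. No gene shown has overlapping muscles, and Obp1a spans 869 to 15638 in EOM against 8.5 to 51.7 in leg muscle.

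Genes of the embryonic and regenerating fibre were higher in EOM where they passed. Of 25 measured, 4 rose and 0 fell on 22 arrays, with a median log2 difference of 0.34, and 6 rose and 0 fell on 18. Of the 25, 19 had a difference above 0 on 22 arrays. The 4 that rose on 22 arrays were Myh3, the embryonic myosin heavy chain, Peg3, Chrna1 and Actc1, the cardiac actin that limb muscle makes before birth. The promoters of Myh3 and Actc1 are shown beside those of Myl3 and Tnnc1, the slow fibre's essential light chain and troponin C, as contractile genes that passed in opposite directions, chosen after their values were seen. Each is the 250 bases before the start site, 5′ to 3′ on the gene's strand, from RefSeq on GRCm38.p6, with E-boxes (CANNTG, the motif bound by myogenic factors, a palindrome read on both strands) in capitals. Myh3 lies at chr11:67078050-67078299 on the plus strand, Actc1 at chr2:114052876-114053125 on the minus strand, Myl3 at chr9:110763428-110763677 on the plus strand and Tnnc1 at chr14:31208062-31208311 on the plus strand.
Myh3: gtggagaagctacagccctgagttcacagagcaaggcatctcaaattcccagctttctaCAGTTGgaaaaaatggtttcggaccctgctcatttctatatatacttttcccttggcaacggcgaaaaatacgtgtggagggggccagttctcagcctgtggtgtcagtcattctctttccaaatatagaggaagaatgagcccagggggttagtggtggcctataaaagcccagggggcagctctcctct
Actc1: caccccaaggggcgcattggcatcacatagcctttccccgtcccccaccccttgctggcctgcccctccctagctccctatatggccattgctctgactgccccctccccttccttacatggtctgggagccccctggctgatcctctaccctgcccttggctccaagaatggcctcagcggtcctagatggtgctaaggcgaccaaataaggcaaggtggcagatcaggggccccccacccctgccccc
Myl3: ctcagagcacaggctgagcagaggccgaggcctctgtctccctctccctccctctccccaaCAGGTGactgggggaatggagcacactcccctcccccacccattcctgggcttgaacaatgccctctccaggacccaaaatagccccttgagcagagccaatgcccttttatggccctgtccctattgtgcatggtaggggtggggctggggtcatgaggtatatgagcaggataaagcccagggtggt
Tnnc1: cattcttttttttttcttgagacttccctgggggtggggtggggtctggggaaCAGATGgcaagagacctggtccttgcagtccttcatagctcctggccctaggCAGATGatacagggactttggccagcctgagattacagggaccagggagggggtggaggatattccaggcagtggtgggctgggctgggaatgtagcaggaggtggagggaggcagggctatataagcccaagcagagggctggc

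An E-box stood once in the Myh3 and Myl3 windows, 2 times in Tnnc1 and not in Actc1, and 66.2% of 32851 mouse promoters of this length held at least 1. A CArG box, the motif of serum response factor, was matched once in Actc1 and once in Myl3, against 1.47% of promoters. Myh3 alone of the 4 held the letters TATAAA, found on either strand in 12.4% of promoters. Presence or absence of these letters says nothing here of which factor binds.

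Myh3 had intensities of 10826, 13220.2 and 13832 in EOM, against 399, 239.6 and 175 in leg muscle. The lowest EOM array lay far above the highest leg array, and all 3 EOM arrays were alike. The log2 difference (EOM minus leg, here and below) was 5.53 (SE 0.35, adjusted p = 3.62e-08) by limma on 22 arrays and 5.94 (SE 0.31, adjusted p = 2.58e-09) on 18. It was 5.22 in Balb at 12 months and 4.19 in SJL at 10 months on 22 arrays.

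Actc1 was read by a pair of probe sets that differed in size. The brighter one, whose type may also read related actins, had intensities of 19056, 49964 and 46793 in EOM, against 9215, 8186 and 8778.5 in leg muscle. The difference was 2.02 (SE 0.40, adjusted p = 0.00754, and 2.51 with adjusted p = 2.11e-07 on 18 arrays). The other, not of that family type, had 16281, 52683 and 51669 in EOM, against 1508, 1878 and 1752 in leg muscle. Replicate 1 of EOM was lowest of the 3 at both probe sets and still above every leg array, and the difference at this one was 4.36 (SE 0.49, adjusted p = 3.09e-05) on 22 arrays and 4.83 (SE 0.17, adjusted p = 3.19e-11) on 18.

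Peg3, an imprinted zinc finger protein of muscle progenitors, had 3530.1, 3282.5 and 3903 in EOM, against 739.9, 286 and 438 in leg muscle, with no overlap. It rose by 2.93 (SE 0.37, adjusted p = 0.00016) on 22 arrays and 3.28 (SE 0.31, adjusted p = 2.15e-06) on 18. A second probe set for Peg3 passed in the same direction, at 2.04 (SE 0.32, adjusted p = 0.00114, and 2.00 with adjusted p = 0.000185 on 18 arrays). Another, dimmer one did not pass, at 0.77 (SE 0.34, adjusted p = 0.325, and 0.61 with adjusted p = 0.468 on 18 arrays). Chrna1, the acetylcholine receptor subunit that denervated and embryonic fibres spread over their surface, had 2120.5, 3117.5 and 2367 in EOM, against 775, 442 and 171 in leg muscle. Leg replicate 1 was the highest leg array and lay well under every EOM array, and the difference was 2.63 (SE 0.39, adjusted p = 0.000594, and 3.22 with adjusted p = 2.19e-06 on 18 arrays). Mdk, the growth factor midkine, and Myh8 passed on 18 arrays and not on 22, with 1.76 and 1.71.

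Slow-fibre contractile and calcium genes that passed on 22 or on 18 arrays, as deposited, were lower in EOM. Of 16 measured, 0 rose and 6 fell on 22 arrays and 9 fell on 18, with 8 under the block. Of the 16, 4 had a difference above 0 on 22 arrays, none of which passed. The median log2 difference was -1.75 on 22 arrays and -1.54 on 18, beside 0.07 and -0.001 over all probe sets. Their summed intensity was 112176, 228456 and 193699 in EOM, against 222884, 407240 and 415950 in leg muscle, so replicate 1 was the lowest of each muscle and the muscles overlapped only through leg replicate 1, just under EOM replicate 2. In RNA of whole tissue, fewer slow fibres and less slow-isoform RNA in each fibre cannot be told apart.

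Myl3, the slow essential light chain, had the largest fall of any gene named, at 169, 776 and 469 in EOM, against 7702, 30406 and 35364 in leg muscle. The highest EOM array was far below the lowest leg array. The difference was -5.61 (SE 0.72, adjusted p = 0.000168) on 22 arrays and -5.73 (SE 0.21, adjusted p = 3.68e-11) on 18. Myl2, the slow regulatory light chain, had 5952, 7516 and 5862 in EOM, against 23466, 59943 and 47925 in leg muscle, with the 3 EOM arrays close together and leg replicate 1 below the other leg arrays. It fell, with a difference of -2.67 (SE 0.39, adjusted p = 0.000634) on 22 arrays and -3.01 (SE 0.21, adjusted p = 8.12e-08) on 18.

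Tnnc1, the slow and cardiac troponin C, had 894.5, 3943 and 3331 in EOM, against 13449.8, 22143 and 30729.9 in leg muscle. The low value of EOM replicate 1 widened the gap, but replicates 2 and 3 were also below every leg array. The difference was -3.19 (SE 0.56, adjusted p = 0.00309) on 22 arrays and -2.84 (SE 0.20, adjusted p = 1.22e-07) on 18. The Tnnc1 call was lost when only the Balb arrays compared were fitted (adjusted p = 0.105 by limma). Myh7, the slow myosin heavy chain, read by probe sets of a type that may also read related genes, had 5598, 8728 and 6909 in EOM, against 24149, 43799.5 and 45332 in leg muscle, again without overlap. It fell, with a difference of -2.38 (SE 0.44, adjusted p = 0.00474) on 22 arrays and -2.52 (SE 0.18, adjusted p = 1.23e-07) on 18, while a far dimmer second probe set, at 459.7, 390.0 and 390.2 in EOM, against 794, 418 and 413.5 in leg muscle, did not pass, at -0.31 (SE 0.50, adjusted p = 0.861, and -0.09 with adjusted p = 0.965 on 18 arrays).

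Atp2a2, the calcium pump of slow and cardiac fibres, had 3055, 1855 and 1492 in EOM, against 11466, 6428 and 7884 in leg muscle. The gene fell, with a difference of -2.03 (SE 0.32, adjusted p = 0.00107, and -2.09 with adjusted p = 3.16e-06 on 18 arrays). Ankrd2, a stretch-responsive ankyrin repeat protein of slow fibres, had 801, 1229 and 1246 in EOM, against 9608, 8442 and 9886 in leg muscle. All 3 EOM arrays of Ankrd2 were well under the leg arrays, and the difference was -3.10 (SE 0.58, adjusted p = 0.00475) on 22 arrays and -2.87 (SE 0.23, adjusted p = 3.4e-07) on 18. Csrp3, the Z-disc protein MLP, Tnni1, the slow troponin I, and Tnnt1, the slow troponin T, passed on 18 arrays and not on 22, with -1.86, -1.77 and -1.31. Their 22-array adjusted p-values by limma were 0.0551, 0.202 and 0.712. With the block Csrp3 (adjusted p = 0.00459) and Tnni1 (0.000705) passed.

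**Figure D3:**
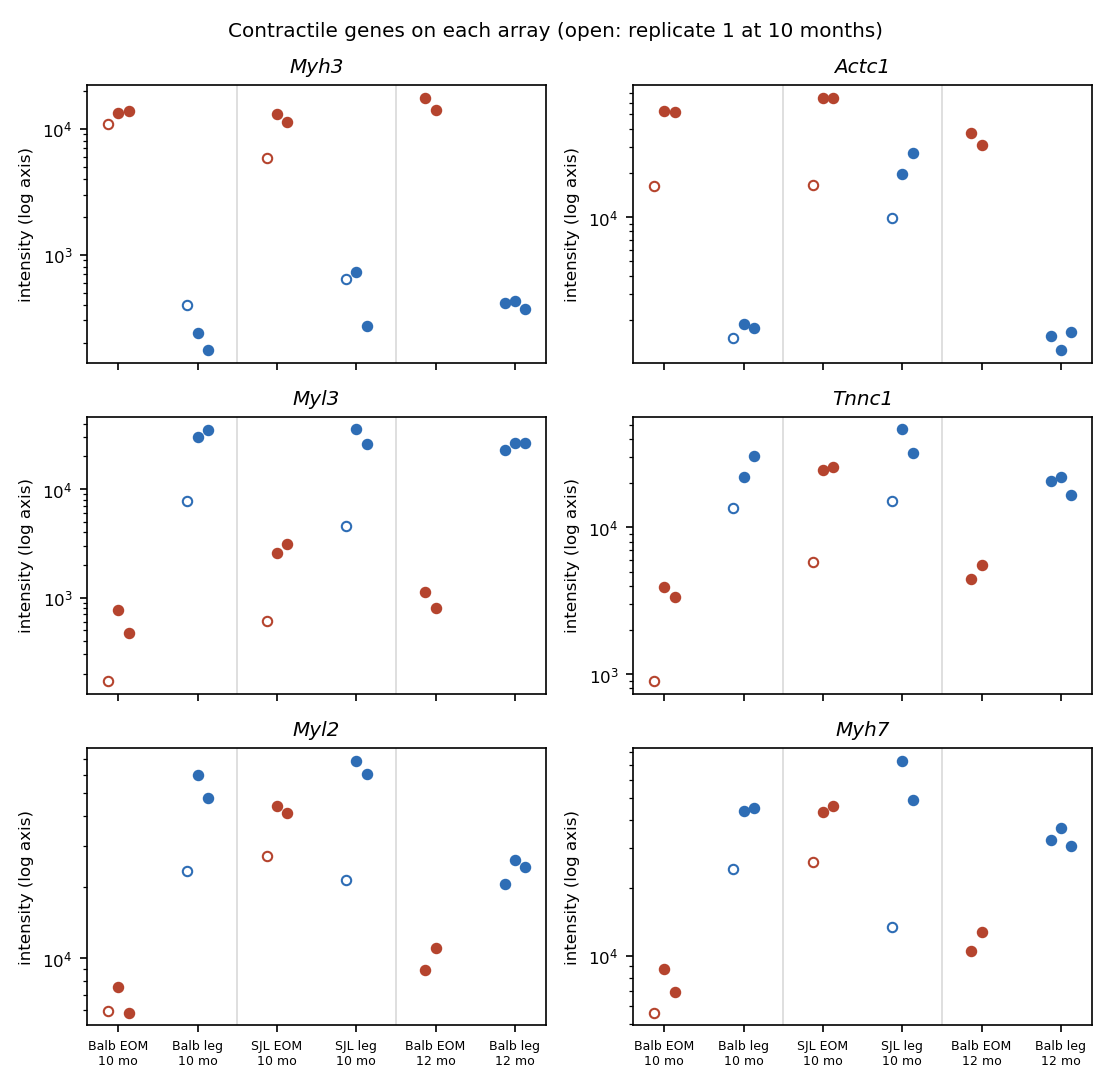
Intensity (log axis) of 6 contractile genes on each array of the 10-month Balb, 10-month SJL and 12-month Balb groups, EOM in red left of leg muscle in blue, with replicate 1 at 10 months open. Myh3 and Actc1 were higher and Myl3, Tnnc1, Myl2 and Myh7 lower in Balb EOM at 10 months, and Actc1, at the probe set not of the family type, on the SJL leg arrays reached 9841 to 27128 against 1508 to 1878 on the Balb leg arrays.

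Few fast-fibre genes passed. Of 18 measured, 0 rose and 2 fell on 22 arrays and 1 rose and 6 fell on 18, with medians of 0.06 and -0.16. Myom2, the M-band protein of fast fibres, had 386, 359.7 and 466 in EOM, against 9889.7, 10689.9 and 9903 in leg muscle. The 3 leg arrays were nearly equal and the 3 EOM arrays were more than an order of magnitude lower, and the difference was -4.61 (SE 0.40, adjusted p = 2.41e-06) on 22 arrays and -4.60 (SE 0.19, adjusted p = 1.57e-10) on 18.

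Pvalb, the calcium buffer parvalbumin, was read by 2 probe sets that disagreed. The first had 22876.5, 14986 and 13765 in EOM, against 30250.5, 41304.5 and 39171 in leg muscle. It fell, with a difference of -1.12 (SE 0.29, adjusted p = 0.0422, and -1.48 with adjusted p = 1.03e-06 on 18 arrays), a call lost with the replicate block (adjusted p = 0.057). The second had 1094, 36693.5 and 49604 in EOM, against 951, 6529 and 4.5 in leg muscle, was low on replicate 1 of both muscles, and had a difference of 4.64 (SE 1.55, adjusted p = 0.139) on 22 arrays and 6.86 (SE 1.48, adjusted p = 0.00488) on 18. No direction is given for Pvalb, although the counts of falls here and below take it at its first probe set, the brighter by mean. Actn3, the actin crosslinker of fast fibres, was lower in EOM at both of its probe sets, with -2.37 at the dimmer one, which passed on 22 arrays (adjusted p = 1.08e-05 by limma), and -2.26 at the brighter one, which passed on 18 arrays (adjusted p = 0.00932) and with the block (adjusted p = 0.0125) and not on 22. Atp2a1, the fast calcium pump, was at 10601, 63848 and 68177 in EOM, against 14055, 24297 and 29970.5 in leg muscle. It passed on 18 arrays and not on 22, with 1.29 on 18, a call lost with the block there (adjusted p = 0.114). Its other probe set gave -0.13 on 22 arrays and 0.21 on 18, and passed on neither.

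Of the 8 myosin heavy chain genes measured, Myh3 rose and Myh7 fell. Myh8, the perinatal chain, had 1135, 1509 and 2443 in EOM, against 873, 798 and 416 in leg muscle, with the EOM arrays above the leg arrays, and a difference of 1.26 (SE 0.37, adjusted p = 0.0776) on 22 arrays and 1.71 (SE 0.36, adjusted p = 0.00452) on 18. A dim second probe set of Myh8 gave -0.52 (SE 0.76, adjusted p = 0.849, and -0.54 with adjusted p = 0.807 on 18 arrays). Myh1, the myosin of fast limb fibres of an intermediate kind, had 31061, 72738.5 and 68199 in EOM, against 31614, 57783 and 55580.2 in leg muscle, which overlapped, and a difference of 0.20 (SE 0.37, adjusted p = 0.886, and 0.31 with adjusted p = 0.208 on 18 arrays). Myh4, whose leg values spanned 1563 to 64857, had a difference of 0.95 (SE 2.27, adjusted p = 0.919) on 22 arrays and -0.24 (SE 0.96, adjusted p = 0.935) on 18. Myh2 (0.70), Myh6, the cardiac alpha chain (-1.69), and Myh14, a nonmuscle chain (0.35), also did not pass on either set of arrays.

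Genes of excitation-contraction coupling and the calcium stores included 3 of 13 that fell and 0 that rose on 22 arrays, and 5 that fell and 1 that rose on 18. Cacng1, the gamma subunit of the muscle L-type calcium channel, had 1256, 1376.5 and 1227 in EOM, against 9917, 21816 and 23566 in leg muscle. Its 3 EOM arrays agreed closely and lay far below the leg arrays, with a difference of -3.73 (SE 0.50, adjusted p = 0.000244) on 22 arrays and -4.11 (SE 0.20, adjusted p = 6.83e-10) on 18. The other 2 that fell were Atp2a2 and the first Pvalb probe set, described above, and the group's median log2 difference was -0.20.

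Genes of the neuromuscular junction rose where they passed, 3 of 12 on 22 arrays with 0 that fell, 5 on 18 arrays and 5 with the replicate block. The median was 0.71 on 22 arrays and 0.80 on 18. Their summed intensity was 45634, 38933 and 39249 in EOM, against 23443, 22003 and 21407 in leg muscle, without overlap. Besides Chrna1, which is in this list too, they were Agrn and Prkar1a.

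Agrn, the nerve-derived organiser of receptor clusters, had 2229.9, 2045 and 2616 in EOM, against 814, 869.7 and 1245 in leg muscle. The rise was 1.24 (SE 0.28, adjusted p = 0.0213, and 1.14 with adjusted p = 0.00685 on 18 arrays). Prkar1a, a regulatory subunit of protein kinase A found at the endplate, had 30589, 18884 and 22443 in EOM, against 14200.1, 10584 and 9982 in leg muscle. This was a rise of 1.04 (SE 0.25, adjusted p = 0.0317, and 1.00 with adjusted p = 2.46e-05 on 18 arrays). Both lay higher on every EOM array than on any leg array, and a second, dimmer Agrn probe set gave 1.14 (SE 0.49, adjusted p = 0.303, and 1.35 with adjusted p = 0.0482 on 18 arrays). Chrnb1, another receptor subunit, and Ache, the esterase that ends transmission, passed on 18 arrays and with the block, not on 22, with 1.18 and 2.24 on 18. Chrnd, the delta subunit, had 716, 724 and 492 in EOM, against 109, 302 and 148 in leg muscle, and its difference of 1.80 (SE 0.65, adjusted p = 0.177, and 1.42 with adjusted p = 0.273 on 18 arrays) did not pass. Quantile normalization and median centring each left 2 of the 3 calls.

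Positional and homeobox genes set the muscles apart by a few members. Of 54 measured, 1 rose and 5 fell on 22 arrays, 1 and 8 on 18, and 1 and 5 on 18 with the block, with a median of -0.15. Hoxd8, a Hox gene of the trunk and limb, had 1185, 557 and 694 in EOM, against 5221, 3022 and 3281 in leg muscle. EOM replicate 1 was its highest EOM array and still lay below every leg array, with a difference of -2.25 (SE 0.36, adjusted p = 0.00136) on 22 arrays and -2.31 (SE 0.23, adjusted p = 3.84e-06) on 18. Its other probe set gave -3.68 (SE 0.49, adjusted p = 0.000221, and -4.13 with adjusted p = 3.36e-07 on 18 arrays). With only the Balb arrays compared in the fit, the first Hoxd8 probe set lost its call (adjusted p = 0.075 by limma).

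Hoxc9, a Hox gene of the lower trunk, had 249, 52.5 and 199.5 in EOM, against 874, 963 and 994 in leg muscle. The gene fell, with a difference of -2.61 (SE 0.53, adjusted p = 0.00981, and -3.03 with adjusted p = 0.005 on 18 arrays). Hoxa10, which patterns the hind limb, had 21.2, 28.0 and 10.8 in EOM, against 695, 323 and 54.1 in leg muscle, so it was near the bottom of the scale in EOM and varied widely in leg muscle. It fell, with a difference of -2.86 (SE 0.66, adjusted p = 0.0229, and -2.17 with adjusted p = 0.0449 on 18 arrays), but not with the block on 18 arrays (adjusted p = 0.0834). Six2, a homeobox gene of tendon and limb mesenchyme, had 1398, 2198 and 701.5 in EOM, against 3863, 5492 and 4351.5 in leg muscle. The difference was -1.79 (SE 0.43, adjusted p = 0.0298, and -1.96 with adjusted p = 0.00101 on 18 arrays). En1, which marks the ventral side of the limb bud, had 295, 423 and 298 in EOM, against 1137, 857 and 1032 in leg muscle. It was lower, with -1.54 (SE 0.40, adjusted p = 0.0484, and -1.37 with adjusted p = 0.0307 on 18 arrays), but 0.0588 with the block on 18 arrays.

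Tbx15, a T-box factor of limb and head mesenchyme, had 12244, 10731 and 13528 in EOM, against 4414, 5101 and 4327 in leg muscle, and was the positional gene that rose, by 1.39 (SE 0.30, adjusted p = 0.0137, and 1.36 with adjusted p = 0.000793 on 18 arrays). Its other probe sets, low on replicate 1 of both muscles, gave -0.04 (SE 1.57, adjusted p = 0.995, and 0.06 with adjusted p = 0.945 on 18 arrays) and 0.48 (SE 0.87, adjusted p = 0.885, and 0.79 with adjusted p = 0.077 on 18 arrays), so they did not bear the rise out on 22 or on 18 arrays.

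The glycogen and glucose genes that passed on 22 arrays were lower in EOM, with 3 of 26 that fell and 0 that rose. On 18 arrays 9 fell and 2 rose, and with the block 7 fell and 1 rose, and the median was -0.33 and -0.35 on 22 and 18 arrays. Phka1, the muscle regulatory subunit of phosphorylase kinase, which switches on glycogen breakdown, had 686, 1330.5 and 1092.5 in EOM, against 2598, 6492 and 6591.5 in leg muscle. Replicate 1 was the lowest of both muscles, yet the muscles did not overlap, and the difference was -2.25 (SE 0.48, adjusted p = 0.0139) on 22 arrays and -2.42 (SE 0.19, adjusted p = 2.11e-07) on 18. The 22-array call was lost without EOM replicate 1 (adjusted p = 0.0599), leg replicate 2 (0.0803) or leg replicate 3 (0.0758). Phka1 also did not pass when only the Balb arrays compared were fitted (adjusted p = 0.121 by limma).

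Fbp2, the muscle fructose bisphosphatase, had 654, 773 and 641 in EOM, against 2788, 2913 and 2399 in leg muscle, with tight values in each muscle. The gene fell, with a difference of -1.94 (SE 0.40, adjusted p = 0.0108, and -1.88 with adjusted p = 3.62e-05 on 18 arrays). Gpd2, the mitochondrial glycerol phosphate dehydrogenase, had 1382, 1296 and 1312 in EOM, against 3130.0, 2926 and 2673 in leg muscle. It fell, with a difference of -1.12 (SE 0.21, adjusted p = 0.00442, and -1.09 with adjusted p = 0.00095 on 18 arrays). Slc37a4, the glucose 6-phosphate carrier of the endoplasmic reticulum, was among the largest falls outside this list, at 1145, 1891 and 1873 in EOM, against 6674, 8662 and 7251 in leg muscle. Its log2 difference was -2.22 (SE 0.29, adjusted p = 0.000191, and -2.06 with adjusted p = 1.46e-06 on 18 arrays). All 3 were lower on every EOM array than on any leg array. Ppp1r3c, a glycogen-targeting subunit of protein phosphatase, passed on 18 arrays and not on 22 (-2.57), as did Pgm1 (-1.32) and Gpd1 (-1.61). All 3 also passed with the block.

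Oxidative phosphorylation and TCA cycle genes showed little difference, with 1 of 65 that rose and 0 that fell on 22 arrays, 3 that rose on 18 and 1 with the block there, and medians of -0.10 and -0.03. Cox6a1, the subunit isoform that most nonmuscle tissues use, had 19703, 16035 and 14877 in EOM, against 8239.5, 5378 and 4469.5 in leg muscle. The rise was 1.52 (SE 0.30, adjusted p = 0.00848, and 1.65 with adjusted p = 1.99e-06 on 18 arrays). Of 25 fatty acid oxidation genes 1 rose and 1 fell on 22 arrays, and 8 rose and 2 fell on 18, and 1 rose and 2 fell with the block. Cpt1a, the liver-type carnitine palmitoyltransferase, had 1758.5, 1614 and 3314 in EOM, against 237, 504 and 597 in leg muscle. This was a rise of 2.30 (SE 0.46, adjusted p = 0.00928, and 2.04 with adjusted p = 0.00363 on 18 arrays). Ucp3, the muscle uncoupling protein, had 1175, 2267 and 2505 in EOM, against 3177, 6384 and 5543 in leg muscle. The gene fell, with a difference of -1.35 (SE 0.32, adjusted p = 0.026, and -1.31 with adjusted p = 6.61e-05 on 18 arrays), with no overlap in either gene.

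**Figure D4:**
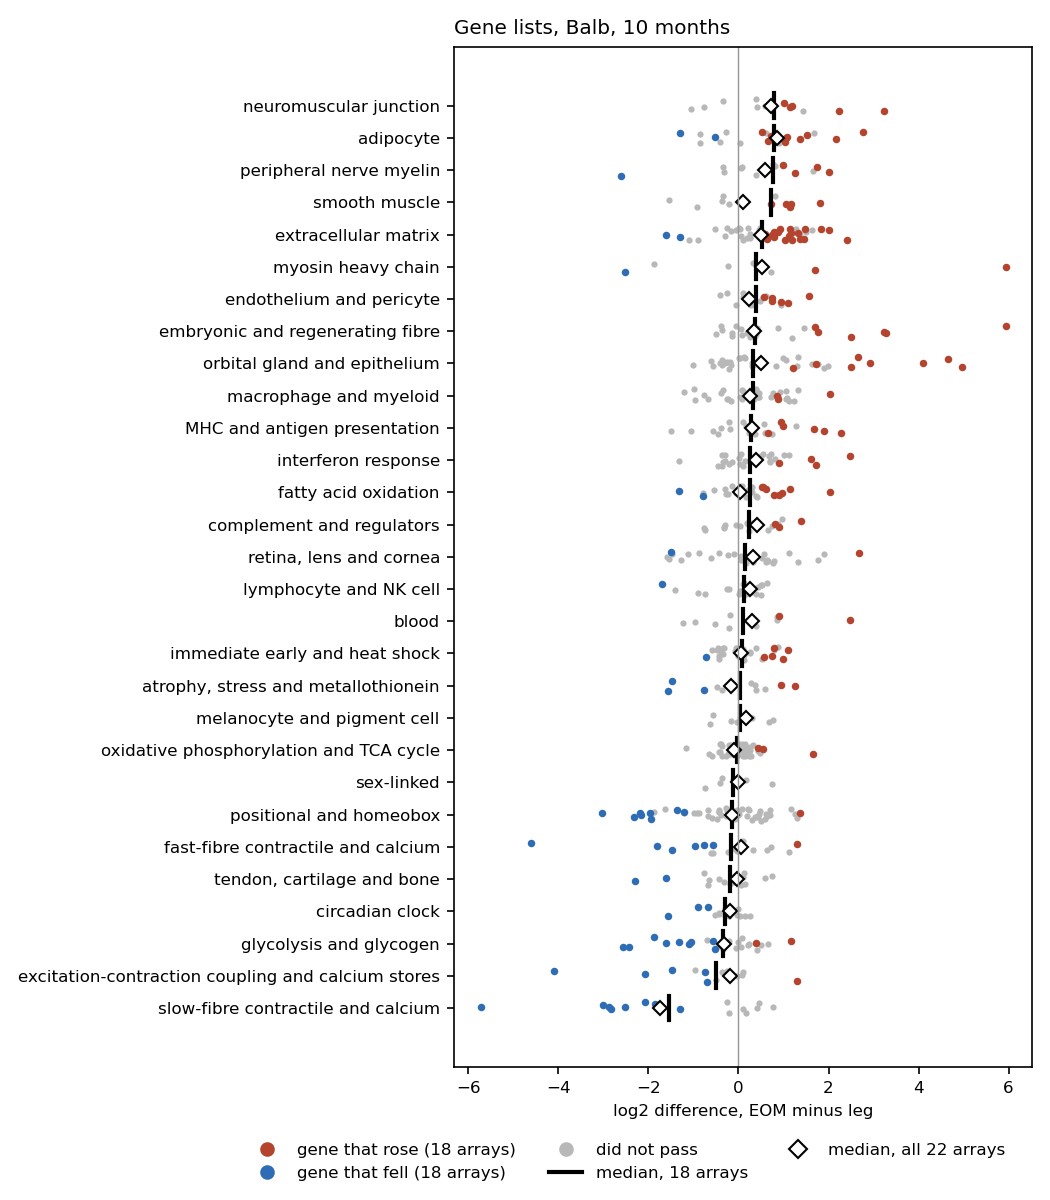
Log2 difference, EOM minus leg muscle, of each measured gene in 29 lists in Balb mice at 10 months, ordered by the 18-array median (bar), with the 22-array median as a diamond and points coloured by the 18-array limma call. Slow-fibre genes lie lowest, with medians of -1.54 on 18 arrays and -1.75 on 22, and neuromuscular junction and adipocyte genes lie highest, at 0.80 and 0.79 on 18.

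The largest rises included secreted proteins of orbital and facial glands. Of 37 gland and epithelium genes measured, 7 rose and 0 fell on 22 arrays and 8 rose on 18, with medians of 0.50 and 0.33. Obp1a, an odorant-binding protein of nasal and lacrimal glands, had 15638, 869 and 4992 in EOM, against 8.5, 51.7 and 51.1 in leg muscle. It was near the floor in leg muscle and varied widely between EOM arrays, with replicate 1 highest, and the difference was 6.42 (SE 1.00, adjusted p = 0.00104) on 22 arrays and 4.97 (SE 1.09, adjusted p = 0.00561) on 18. Bpifa2, the parotid secretory protein, had 15600.5, 13114 and 11707 in EOM, against 445, 487 and 465 in leg muscle, with a difference of 4.80 (SE 0.48, adjusted p = 1.08e-05, and 4.66 with adjusted p = 1.1e-06 on 18 arrays), and both muscles were even across replicates.

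Mup3 and Mup5 read major urinary proteins, scent carriers of a large family of near-identical genes, so the member cannot be named with certainty. The Mup3 probe set had 7847, 1127 and 5877 in EOM, against 161, 157 and 85.1 in leg muscle. Its difference was 4.69 (SE 0.68, adjusted p = 0.000515, and 4.30 with adjusted p = 0.00143 on 18 arrays). The Mup5 probe set had 12995, 1682 and 7818 in EOM, against 105, 478 and 455 in leg muscle. The log2 difference was 4.20 (SE 0.69, adjusted p = 0.00162, and 2.92 with adjusted p = 0.00181 on 18 arrays). Replicate 2 was the lowest EOM array of both, as it was of Obp1a. Mup3 itself is not in the list of 37, nor are the next 6 genes. Gm14743, a predicted gene, had 37263, 10807 and 21003 in EOM, against 513, 406 and 487 in leg muscle, with a difference of 5.40 (SE 0.67, adjusted p = 0.00013, and 5.03 with adjusted p = 0.000162 on 18 arrays), and replicate 2 was again its lowest EOM array.

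Wfdc18, a small secreted protein of the whey acidic protein family, had 6565, 2351.5 and 7266 in EOM, against 81.4, 757 and 524 in leg muscle. Its difference was 3.82 (SE 0.66, adjusted p = 0.00262, and 2.68 with adjusted p = 0.00285 on 18 arrays). Pglyrp1, a secreted antibacterial protein, had 1551.5, 3663 and 2948 in EOM, against 550.3, 214 and 194 in leg muscle at its brighter probe set, with 3.10 (SE 0.51, adjusted p = 0.0018, and 3.91 with adjusted p = 2.46e-05 on 18 arrays), and 5.74 at the other (5.48 on 18 arrays). Plet1, a surface protein of epithelial progenitors, had 3014, 1690.4 and 2316.5 in EOM, against 272, 139 and 185 in leg muscle. Its log2 difference was 3.46 (SE 0.56, adjusted p = 0.0015, and 3.50 with adjusted p = 0.00123 on 18 arrays), and Perp, a protein of epithelial desmosomes, had 1409.9, 830.3 and 1435 in EOM, against 41.1, 95.5 and 119.9 in leg muscle, with a difference of 3.66 (SE 0.50, adjusted p = 0.000289, and 3.17 with adjusted p = 0.00146 on 18 arrays). S100a5, a small calcium-binding protein, had 2550.4, 1437 and 2062 in EOM, against 155, 168 and 188 in leg muscle. Its difference was 3.41 (SE 0.51, adjusted p = 0.000759, and 3.16 with adjusted p = 0.00354 on 18 arrays). None of these overlapped between the muscles. When only the Balb arrays compared were fitted, the calls of Obp1a (adjusted p = 0.0561), Mup3 (0.0505), Mup5 (0.123), Wfdc18 (0.144) and Pglyrp1 (0.0728) were lost.

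Of the list's 37 genes the other 4 that rose were Krt19, Muc1, Pax6 and Krt6a, and 9 of the 37 had a difference below 0, among them Krt5 (-0.95) and Krt4 (-0.02), which did not pass. Krt19, a keratin of simple epithelia, had 449.6, 835 and 978 in EOM, against 35.3, 45.3 and 31.0 in leg muscle. It rose by 3.79 (SE 0.55, adjusted p = 0.000496, and 4.10 with adjusted p = 0.000135 on 18 arrays), although a second probe set of Krt19 stayed dim in both muscles (0.32, not passed). Muc1, a mucin of the gland surface, had 1643, 2469 and 3733 in EOM, against 862, 511.5 and 425 in leg muscle. The rise was 2.08 (SE 0.48, adjusted p = 0.0237, and 2.66 with adjusted p = 0.00023 on 18 arrays). Pax6, a transcription factor of the eye and its glands, had 1567, 456 and 677.5 in EOM, against 212, 128 and 54.8 in leg muscle. This was a rise of 2.60 (SE 0.62, adjusted p = 0.0273, and 2.50 with adjusted p = 0.00513 on 18 arrays). Krt6a, a keratin of stratified epithelia, had 4191, 3945 and 2788 in EOM, against 1772.5, 1532.5 and 1329 in leg muscle. The gene rose by 1.22 (SE 0.31, adjusted p = 0.0431, and 1.21 with adjusted p = 0.0318 on 18 arrays).

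The summed intensity of the 37 gland and epithelium genes was 75183, 42246 and 51814 in EOM, against 15606, 18965 and 19237 in leg muscle. It was highest on EOM replicate 1, and the muscles did not overlap. Of the list, 8 genes had a mean under 200 in EOM and 16 in leg muscle, among them Krt15, Lcn4, Cldn7 and Ehf in both. How much of any other difference goes with gland tissue in the sample was not tested. Retina, lens and cornea genes had 1 of 28 that rose and 1 that fell, with sums of 17351, 15884 and 14850 in EOM, against 12354, 13739 and 13294 in leg muscle. Abca4, a lipid transporter of photoreceptors, had 1157, 1223 and 1157 in EOM, against 251, 184 and 163 in leg muscle. It rose by 2.49 (SE 0.40, adjusted p = 0.00134, and 2.67 with adjusted p = 0.00147 on 18 arrays), while Opn1mw, a cone opsin, had 394, 387 and 292 in EOM, against 1293, 928 and 1050.5 in leg muscle. The difference was -1.56 (SE 0.32, adjusted p = 0.0108, and -1.51 with adjusted p = 0.0161 on 18 arrays), but not passed with the block on 18 arrays (adjusted p = 0.0548). Sag and Rcvrn, which define photoreceptors, were dim, with means of 45.6 and 110.4 in EOM, against 38.8 and 125 in leg muscle.

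**Figure D5:**
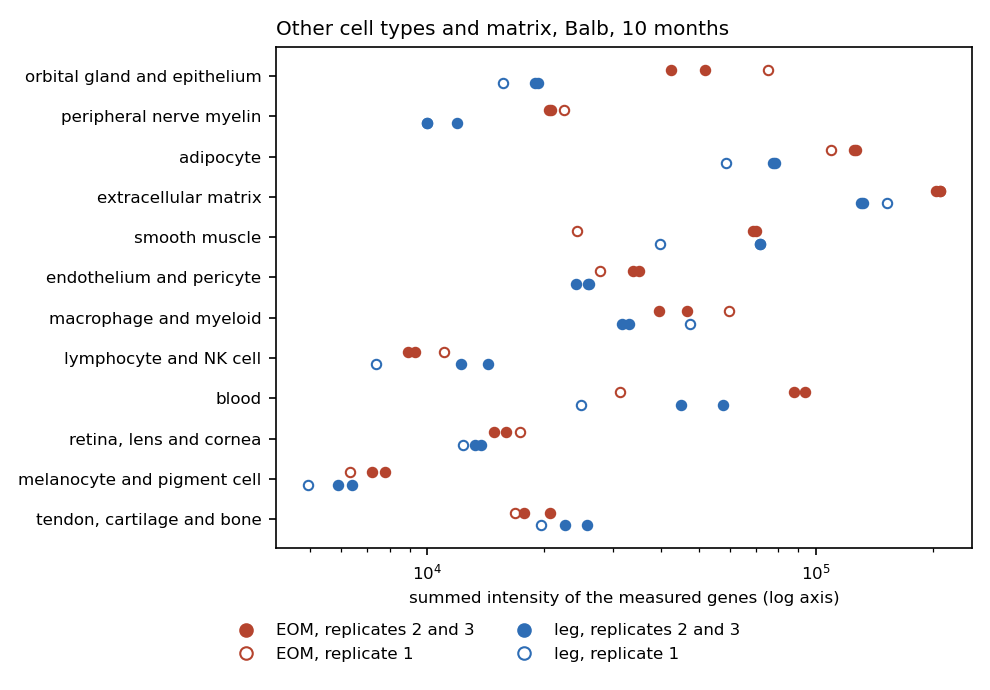
Summed intensity (log axis) of the measured genes of 12 lists of other cell types and matrix on each Balb array at 10 months, EOM in red above leg muscle in blue, with replicate 1 open. The gland, nerve, adipocyte, extracellular matrix, endothelium and retina sums do not overlap between muscles, with 20518 to 22438 for nerve in EOM against 9992 to 11915 in leg muscle.

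Peripheral nerve myelin genes had 2 of 13 that rose and 0 that fell on 22 arrays, 4 that rose and 1 that fell on 18, 2 and 0 on 18 with the block, and medians of 0.60 and 0.77. Pmp22, a myelin membrane protein, had 7988, 6465 and 6392 in EOM, against 2265, 1327 and 1911 in leg muscle. This was a rise of 1.94 (SE 0.30, adjusted p = 0.00102, and 2.00 with adjusted p = 2.15e-06 on 18 arrays). Erbb3, the neuregulin receptor of Schwann cells, had 2753, 2088 and 2221 in EOM, against 814, 544 and 732.5 in leg muscle. The gene rose by 1.74 (SE 0.25, adjusted p = 0.00057, and 1.75 with adjusted p = 0.000195 on 18 arrays). A second, dim probe set of each of these genes did not pass (0.48 and 0.45). Mbp, the major basic protein of myelin, had 1782, 2801 and 2006.5 in EOM, against 729, 2059.6 and 2429 in leg muscle, which overlapped, and 0.48 (SE 0.37, adjusted p = 0.661, and 0.08 with adjusted p = 0.903 on 18 arrays). L1cam, the adhesion molecule of unmyelinated fibres, was the gene that fell on 18 arrays (-2.60), a call lost with the block there (adjusted p = 0.0608).

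Adipocyte and lipid synthesis genes had 5 of 22 that rose and 0 that fell on 22 arrays, 10 and 2 on 18, 9 and 1 with the block, and 6 and 1 with it on 18, with medians of 0.86 and 0.79. The summed intensity was 109107, 125299 and 126807 in EOM, against 58649, 77586 and 78439 in leg muscle. Scd1, a fatty acid desaturase, had 18521, 44174 and 44177 in EOM, against 8582.5, 6015 and 6887 in leg muscle. It rose by 2.22 (SE 0.35, adjusted p = 0.00107) on 22 arrays and 2.78 (SE 0.18, adjusted p = 3.27e-08) on 18. A second Scd1 probe set gave 3.19 (SE 0.31, adjusted p = 8.37e-06, and 3.13 with adjusted p = 2.04e-07 on 18 arrays), and another, dim one did not pass (0.70).

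The other 4 that rose were Scd2, a related desaturase (1.99, and 2.17 on 18 arrays), Fasn, fatty acid synthase (1.43 and 1.37), Cidea, a lipid droplet protein (1.25 and 1.09), and Acly, which makes acetyl-CoA for lipids (1.02 and 1.03), and all 4 passed on 18 arrays too. Among genes that define the fat cell itself, Adipoq, the hormone adiponectin, had 20505, 5710.5 and 6160.2 in EOM, against 2816, 2695 and 2979.7 in leg muscle, with 1.66 (SE 0.45, adjusted p = 0.0538) on 22 arrays, 1.06 (SE 0.19, adjusted p = 0.00139) on 18 and adjusted p = 0.00849 with the block. Lep, the hormone leptin, had 3468, 2054 and 2158 in EOM, against 2755, 4481 and 3255 in leg muscle. The log2 difference was -0.46 (SE 0.32, adjusted p = 0.601, and -0.85 with adjusted p = 0.0578 on 18 arrays), and Fabp4, the fatty acid binding protein of adipocytes, had 3045, 2009 and 1852 in EOM, against 2145, 1625.5 and 2199 in leg muscle, with a difference of 0.19 (SE 0.33, adjusted p = 0.884, and 0.03 with adjusted p = 0.981 on 18 arrays). Adipoq was thus higher on every EOM array and did not pass on 22 arrays, while Lep and Fabp4 overlapped. Elovl5, which elongates polyunsaturated fatty acids and is outside this list, had 8354.5, 15569.9 and 40852 in EOM, against 1172, 1025 and 1004 in leg muscle. The rise was 4.02 (SE 0.38, adjusted p = 8e-06) on 22 arrays and 4.61 (SE 0.30, adjusted p = 3.81e-08) on 18.

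Extracellular matrix genes had 3 of 51 that rose and 0 that fell on 22 arrays, but 20 that rose and 2 that fell on 18 and 12 and 1 with the block. The median was 0.50 on 22 arrays and 0.52 on 18, and 40 of the 51 had a difference above 0. Lum, the proteoglycan lumican, had 22119, 10193 and 11932 in EOM, against 6453, 3168.5 and 2344 in leg muscle, with replicate 1 highest in both muscles and no overlap. This was a rise of 1.93 (SE 0.42, adjusted p = 0.0149) on 22 arrays and 2.01 (SE 0.16, adjusted p = 3.34e-07) on 18. Col14a1, a collagen that links fibrils, rose by 1.29 (1.36 on 18 arrays, with adjusted p = 0.061 under the block there), and Col15a1, a collagen of muscle basement membrane, rose by 0.95 (1.11 on 18 arrays). On 18 arrays and not on 22, Postn, periostin, passed with 2.41, Col18a1, a basement membrane collagen, with 1.83, Bgn, biglycan, with 1.45, and Fmod, a proteoglycan of tendon, with -1.60. Col18a1 and Fmod also passed with the block on 22 arrays. The tendon, cartilage and bone list, which holds Fmod too, had 0 calls among 15 genes on 22 arrays, 2 that fell on 18 and 1 that fell with the block.

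Smooth muscle genes had 2 of 11 that rose and 0 that fell, 5 that rose on 18 and 3 with the block, though median centring left 0. Their median was 0.10 on 22 arrays and 0.73 on 18. Acta2, the smooth muscle actin, had 4855, 4721 and 5464 in EOM, against 3379, 2006 and 2962 in leg muscle. Its difference was 0.88 (SE 0.20, adjusted p = 0.0253, and 1.05 with adjusted p = 0.000624 on 18 arrays), and Myl9, its regulatory light chain, had 2392, 3063 and 3243 in EOM, against 1352, 1461 and 1396 in leg muscle. Its log2 difference was 1.03 (SE 0.25, adjusted p = 0.0313, and 1.13 with adjusted p = 0.000538 on 18 arrays). Endothelium and pericyte genes had 0 calls among 20 on 22 arrays by limma, with 6 that rose on 18 and 3 with the block. Vwf, the endothelial clotting factor, had 1343, 2693 and 2250.0 in EOM, against 837, 1183 and 575 in leg muscle, with 1.26 (SE 0.39, adjusted p = 0.0978) on 22 arrays, 1.56 (SE 0.28, adjusted p = 0.0013) on 18 and adjusted p = 0.0136 with the block. Blood genes had 0 calls among 10 on 22 arrays, 2 that rose on 18 and 1 with the block, with summed intensities of 31291, 87746 and 93626 in EOM, against 24809, 57449 and 44908 in leg muscle.

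Immune genes gave few calls on 22 arrays. Macrophage and myeloid genes had 1 of 38 that rose and 0 that fell on 22 arrays, 3 that rose on 18 and 2 with the block. Lyz2, the lysozyme of macrophages, had 4999, 4414 and 5224 in EOM, against 3531.5, 1079 and 1233 in leg muscle, with leg replicate 1 well above the other leg arrays. The gene rose by 1.53 (SE 0.36, adjusted p = 0.026) on 22 arrays and 2.04 (SE 0.19, adjusted p = 2.16e-06) on 18, while a dim second probe set did not pass (0.36). Lymphocyte and NK cell genes had 0 calls among 20 on 22 arrays, and 1 that fell on 18 and with the block. MHC and antigen presentation genes had 0 among 23, with 6 that rose on 18 and 3 with the block, among them B2m, the light chain of class I molecules (1.68 on 18 arrays, adjusted p = 0.0309 with the block). Interferon response genes had 0 among 28, with 4 that rose on 18 and 2 with the block. Of 18 complement genes and regulators 1 rose on 22 arrays and 3 on 18 and with the block, and Cd59a, an inhibitor of the complement pore, had 9491.5, 6755.5 and 5833 in EOM, against 3433, 3202 and 3937 in leg muscle, with a difference of 1.03 (SE 0.24, adjusted p = 0.0247, and 0.82 with adjusted p = 0.0172 on 18 arrays).

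Other lists held few calls on 22 arrays. The atrophy, stress and metallothionein list of 12 held 1 gene that fell and 0 that rose, Ddit4, a stress-induced brake on mTOR, with 1338, 1030.5 and 984 in EOM, against 1770.4, 3460.2 and 2651 in leg muscle and -1.18 (SE 0.31, adjusted p = 0.0473, and -1.57 with adjusted p = 0.00328 on 18 arrays), a call lost with the replicate block (adjusted p = 0.0674). On 18 arrays 2 genes of this list rose and 3 fell. Of 15 circadian clock genes 0 rose and 1 fell, Rora, a nuclear receptor of the clock, with 229, 393 and 522 in EOM, against 859, 1266 and 1473 in leg muscle and -1.65 (SE 0.36, adjusted p = 0.0175, and -1.56 with adjusted p = 0.000256 on 18 arrays), and its other, dim probe set did not pass (-0.52). On 18 arrays 3 clock genes fell and 0 rose, and 2 fell with the block. Immediate early and heat shock genes had 0 calls among 29, and 5 that rose and 1 that fell on 18, and 1 that rose with the block. Melanocyte genes had 0 calls among 8 and sex-linked genes 0 among 7 on 22 and on 18 arrays.

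Among the largest differences that no list holds, Smyd2, a lysine methyltransferase of heart and skeletal muscle, had 119, 179 and 220.4 in EOM, against 1112, 2565 and 2077 in leg muscle. Its difference was -3.31 (SE 0.40, adjusted p = 9.06e-05, and -3.44 with adjusted p = 2.01e-07 on 18 arrays), and -3.12 at its other probe set (-2.94 on 18 arrays). Styx, a phosphatase relative without catalytic activity, had 295, 256 and 333 in EOM, against 1731, 2487 and 2184 in leg muscle. The log2 difference was -2.78 (SE 0.23, adjusted p = 2.11e-06, and -2.93 with adjusted p = 2.46e-07 on 18 arrays). Aimp2, a scaffold of the tRNA synthetase complex, had 2502, 6578.5 and 4239 in EOM, against 23001, 25264 and 23980.0 in leg muscle, with a difference of -2.54 (SE 0.33, adjusted p = 0.00016, and -2.22 with adjusted p = 2.08e-07 on 18 arrays). All 3 genes were lower on every EOM array than on any leg array. Park7, a sensor of oxidative stress, had 3473, 12606 and 11308 in EOM, against 27489, 41677 and 40323 in leg muscle. Its difference was -2.18 (SE 0.49, adjusted p = 0.0204, and -1.78 with adjusted p = 2.62e-06 on 18 arrays), and EOM replicate 1 was its lowest array. The 22-array call of Park7 was lost without EOM replicate 1 (adjusted p = 0.0911), leg replicate 2 (0.0874), leg replicate 3 (0.0791) or both Balb replicate 1 arrays (0.0821). Park7 also did not pass when only the Balb arrays compared were fitted (adjusted p = 0.192 by limma).

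Skap2, an adaptor of Src-family kinases, had 549.8, 139.5 and 184 in EOM, against 1132, 1347 and 1237 in leg muscle. Its log2 difference was -2.27 (SE 0.57, adjusted p = 0.0364, and -2.89 with adjusted p = 1.12e-05 on 18 arrays). Rufy3, a RUN-domain protein known from axon growth, had 3303, 3140.0 and 2651 in EOM, against 73.3, 514 and 433 in leg muscle, with a difference of 3.45 (SE 0.66, adjusted p = 0.00624, and 2.57 with adjusted p = 1.77e-05 on 18 arrays), and leg replicate 1 was its lowest array. Epyc, a small proteoglycan of cartilage, had 1756, 649 and 609 in EOM, against 106, 48.5 and 106 in leg muscle. Its difference was 3.19 (SE 0.75, adjusted p = 0.0253, and 2.86 with adjusted p = 0.0209 on 18 arrays). Rbp4, the carrier of retinol, had 2122, 973 and 1112.5 in EOM, against 85.0, 90.9 and 376 in leg muscle. The log2 difference was 3.05 (SE 0.63, adjusted p = 0.0108, and 2.37 with adjusted p = 0.0105 on 18 arrays). None of these overlapped, which the rule that chose them required. On 22 arrays the call of Skap2 was lost when any 1 of EOM replicates 2 and 3 and the 3 leg arrays was left out, at adjusted p of 0.0626 to 0.153. That of Epyc was lost without EOM replicate 1 (0.108), leg replicate 2 (0.119) or leg replicate 3 (0.0619), without both Balb replicate 1 arrays (0.137), and with the block on 18 arrays (0.0567). Rbp4 was lost without EOM replicate 1 (0.0505), leg replicate 2 (0.0661) or both Balb replicate 1 arrays (0.135), and Rufy3 without both Balb replicate 1 arrays (0.0652). With only the Balb arrays compared in the fit, Skap2 (adjusted p = 0.175 by limma), Epyc (0.0901), Rbp4 (0.135) and Rufy3 (0.11) lost their calls.

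The difference between muscles at 10 months was then set against that of the Balb mice at 12 months, on other arrays, by the difference of the differences. Larger and smaller are by sign here and below, so a smaller difference can be a deeper fall in EOM. On 22 arrays 0 probe sets had a larger and 1 a smaller EOM minus leg difference at 10 months (0.00805%), and 528 had an unadjusted p under 0.05 (limma). The one was Alox12e, an epidermal lipoxygenase, at -4.59 (SE 0.65, adjusted p = 0.0153). It had 113, 113 and 95.1 in EOM, against 105.5, 101 and 78.8 in leg muscle at 10 months, and 681 and 3171 in EOM against 32.6, 51.9 and 36.7 in leg muscle at 12 months, so the 12-month EOM arrays alone were high. The call of Alox12e was lost with the replicate block (adjusted p = 0.141), without any 1 of the 3 EOM arrays at 10 months, and with only the groups compared in the fit. Its other, brighter probe set had 3132, 1495.5 and 1570.1 in EOM, against 1032.5, 760.3 and 922 in leg muscle at 10 months, and 1559 and 4141 in EOM against 205, 497 and 531 in leg muscle at 12 months. There EOM was higher on every array at both ages, and the difference between ages of -1.59 did not pass.

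On 18 arrays 23 were larger (0.185%) and 50 smaller (0.403%) at 10 months, 0.588% in all, with 0 and 0 under the replicate block on 22 arrays. The genes named from these were chosen after their values were seen. Abundant fibre genes were among the smaller ones, with Actn3 at -3.86 (SE 0.58, adjusted p = 0.00842), Eno3, the muscle enolase, at -3.84 (SE 0.80, adjusted p = 0.0377), Aldoa, the muscle aldolase, at -3.67 (SE 0.61, adjusted p = 0.0147) and Myl1, the fast essential light chain, at -3.43 (SE 0.70, adjusted p = 0.0334). On 18 arrays Actn3 at this probe set was lower in EOM at 10 months (-1.805) and higher at 12 months (2.05). The differences at 10 and 12 months were 0.05 and 3.89 for Eno3, 0.23 and 3.90 for Aldoa, and 0.11 and 3.54 for Myl1. The 12-month leg arrays were low for these, with 1945, 4821 and 2716 for Myl1, against 2498, 78439 and 61868 on the 10-month leg arrays, and the second probe sets of Actn3 and Aldoa are not among the 73. That of Actn3 had 2333 and 2315 in EOM against 9798, 13294 and 10397 in leg muscle at 12 months, lower in EOM as at 10 months. The 12-month leg arrays had maxima of 35857 to 41396, against 105179 and 88609 on leg replicates 2 and 3 at 10 months. Whether array scale or age goes with the calls of these fibre genes was not tested. Skap2 was also among the smaller ones, at -3.22 (SE 0.43, adjusted p = 0.0047). Its EOM minus leg difference on 18 arrays was -2.89 at 10 months and 0.33 at 12 months, so its fall in EOM was seen at 10 months only. Among the larger ones were Elovl5, at 2.40 (SE 0.41, adjusted p = 0.0157), and Hsd17b11, a lipid droplet dehydrogenase, at 2.23 (SE 0.36, adjusted p = 0.0118). With the block on 18 arrays the calls of Eno3 (adjusted p = 0.0538), Elovl5 (0.0587) and Hsd17b11 (0.063) were lost, and 19 calls stood in all.

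Against the SJL mice at 10 months, also on other arrays, 0 probe sets had a larger and 0 a smaller EOM minus leg difference in Balb on 22 arrays in limma, and 446 had an unadjusted p under 0.05. On 18 arrays 28 were larger (0.225%) and 19 smaller (0.153%), 0.378% in all, and the replicate block on 22 arrays gave 2 larger (0.0161%) and 1 smaller, 0.0242% in all. On 18 arrays SJL EOM was read by replicates 2 and 3, whose Gapdh ratios were 6.71 and 4.66. How far this bears on the differences was not tested. Slow-fibre genes, chosen after their values were seen, were among the smaller ones, with Myl2 at -2.41 (SE 0.29, adjusted p = 0.00113), Myl3 at -2.31 (SE 0.30, adjusted p = 0.00133), Tnnc1 at -2.23 (SE 0.29, adjusted p = 0.00133) and Myh7 at -2.09 (SE 0.26, adjusted p = 0.00113). On 18 arrays these genes thus fell further in EOM in Balb than in SJL. The EOM minus leg difference was -3.01 in Balb against -0.60 in SJL for Myl2, and -5.73 against -3.41 for Myl3. For Tnnc1 it was -2.84 against -0.61, and for Myh7 -2.52 against -0.42. Myl2 was at 27144, 43983 and 41175 in SJL EOM, against 21453, 68616 and 60613 in SJL leg muscle, so those muscles overlapped, through leg replicate 1, where the Balb ones did not. Myh7 was at 26176, 43225 and 46042 in SJL EOM, against 13383, 73149.7 and 48953 in SJL leg muscle, which overlapped in the same way.

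Actc1 at the probe set not of the family type was among the larger ones, at 3.35 (SE 0.24, adjusted p = 2.33e-06), and its SJL values were 16562, 64379.5 and 64571 in EOM, against 9841, 19645.5 and 27128 in leg muscle. Every SJL leg array thus lay above every Balb leg array at that age. Ache was at 3.67 (SE 0.59, adjusted p = 0.00625). Its EOM minus leg difference on 18 arrays was 2.24 in Balb and -1.43 in SJL, with opposite signs. Elovl5 was at 2.32 (SE 0.42, adjusted p = 0.0186), which was lost with the block on 18 arrays (adjusted p = 0.0894). Myh3, by contrast, had SJL values of 5892, 12977 and 11204 in EOM, against 639, 727 and 274 in leg muscle, and its difference between strains did not pass on either set of arrays.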

How the data were processed

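Total RNA was measured on 22 Affymetrix arrays, with samples grouped by the strain, muscle and age in their labels. The deposited values are linear intensities, which the authors obtained by a standard Affymetrix protocol, per the labels; how background was corrected and probes were summarized, and with which software, is not given in the sources used here. The 2%-trimmed mean was 1500.8 to 1501.1 on each array, so they had been scaled. The number of arrays limits the precision.

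The 66 control probe sets served for quality ratios only. Of 12422 others, 10833 carried 1 gene symbol, 396 several and 1193 none. Values were taken as log2(intensity + 16), without a filter or further normalization. All 22 arrays entered 1 fit of 8 group means, in limma 3.58.1 under R 4.3.3 (eBayes with trend, 14 residual and 4.25 prior degrees of freedom, 10 and 6.39 on 18 arrays). Tests were two-sided, with Benjamini-Hochberg adjustment over all 12422 at 0.05. The procedure was tested on simulated data with the same spread on every array, so that test does not cover arrays like replicate 1. Figures used matplotlib 3.10.9.

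Named genes were the 15 largest rises and falls that passed on 22 and 18 arrays without overlap and at a mean of 1000 or more in the higher muscle, up to 5 list members by adjusted p, all myosin heavy chains and all positional genes that passed. The members and the 29 lists were chosen with earlier results of these data known, and describe the data without a test of their own. In counts each gene is represented by its brightest probe set, and probe sets that disagree are given beside it.

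Same-numbered arrays were checked for pairing by correlating their deviations from the group means, which gave 0.466, 0.224 and 0.183 for replicates 1, 2 and 3 of the Balb muscles. The difference of replicate 2 from 3 correlated at -0.02 between muscles, and no label says what a shared number would mean, so the main fit has no block. Blocked values stand beside many of the calls and counts they change, and not beside every list count that they change. The 19 alternatives varied arrays, weights, block, normalization, pseudocount, filter and variance prior.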

Additional observations from a re-analysis of the deposited data

Results flagged for a closer look

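The EOM minus leg difference of Alox12e, an epidermal lipoxygenase, in Balb mice at 10 months minus that at 12 months was -4.59 on the log2 scale (SE 0.65, adjusted p = 0.0153 by limma on 22 arrays). The ages were read on separate sets of arrays with different maxima, so age and array set cannot be told apart in this test. At 10 months the muscles had intensities of 113, 113 and 95.1 in EOM, against 105.5, 101 and 78.8 in leg muscle, and at 12 months 681 and 3171 in EOM, against 32.6, 51.9 and 36.7 in leg muscle. The 2 EOM arrays at 12 months were the only ones of these 11 that were high, and the call was lost with the replicate block (adjusted p = 0.141). It was also lost without any 1 of the 3 EOM arrays at 10 months and with only the groups compared in the fit. The gene's other, brighter probe set had 3132, 1495.5 and 1570.1 in EOM, against 1032.5, 760.3 and 922 in leg muscle at 10 months, and 1559 and 4141 in EOM, against 205, 497 and 531 in leg muscle at 12 months, and its difference between the ages, -1.59, did not pass.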

How the results depend on the processing

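In place of 208 probe sets higher and 121 lower in EOM, 795 and 705 were called without the 4 replicate 1 arrays at 10 months, 852 and 817 with quantile normalization as well, 587 and 420 with array quality weights, and 31 and 18 when only the Balb arrays compared were fitted. Leaving out 1 Balb array at a time gave 110 to 263 higher and 58 to 126 lower; the counts were 120 and 73 without EOM replicate 3, 110 and 58 without leg replicate 2, and 121 and 62 without leg replicate 3. The cause was not tested. Against Balb at 12 months, 1 call became 73 without the 4 arrays, 63 with quantile normalization as well, 20 with weights, 6 with a pseudocount of 64, 2 without the intensity trend, and 0 with only the groups compared, without the 2 Balb replicate 1 arrays or without the 30% dimmest probe sets, and leaving out 1 array gave 0 to 2. Against SJL at 10 months, 0 calls became 47, 60 with quantile normalization as well, and 6 with weights, and leaving out 1 array gave 0 each time. With the replicate block, 425 were higher and 343 lower, and 592 and 519 on 18 arrays; against Balb at 12 months it gave 0 and 19, and against SJL 3 and 19. On 22 arrays the block ended the EOM against leg calls of Pvalb and Ddit4 and of no other gene named as passing there; the losses on 18 arrays stand beside their genes. Of 30 named genes over 19 settings, 34 of 570 values lost the call, 13 of them when only the groups compared were fitted; a kept sign follows from the rule, which took genes without overlap. Probe sets near the bottom of the scale, such as Hoxa10 in EOM, depend most on the pseudocount.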
